A study of Mus musculus with 24 samples.

Results

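Quadriceps muscle of MRL/MpJ mice that carried polyethylene particles in a muscle wound was compared with quadriceps of uninjured MRL/MpJ mice, by bulk RNA sequencing. The comparison held 6 of the 24 libraries of the series, 3 per group, chosen by their labels alone, and 14159 of the 14160 rows of the expression matrix, those with a gene symbol. The mice were female, 6 to 8 weeks old at surgery. In the PE group a volume of the quadriceps was removed, which is called a volumetric muscle loss injury, the defect was filled with a powder of ultra-high-molecular-weight polyethylene (PE), and the muscle was taken 21 days later. The uninjured group had neither surgery nor material. The other MRL groups had the same injury filled with saline or with decellularised extracellular matrix (ECM), again at 21 days, and the same 4 conditions were run in C57BL/6J (B6) mice. Each library came from whole quadriceps, so RNA of fibres, infiltrating cells, fat and vessels was measured together, and fewer cells of a type cannot be told apart from less RNA per cell. The labels do not say how many animals each library represents, so p-values measure only the spread between these libraries.

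MRL/MpJ is an inbred mouse strain known for closing ear wounds with little scar and for a tendency to autoimmunity. Particles of polyethylene cannot be degraded by cells: macrophages gather around them, take up what they can and fuse into multinucleated giant cells, in what is known as a foreign body response, while fibroblasts lay down collagen. Type I interferon acts through a receptor whose signal activates transcription factors that bind an element in the promoters of interferon-stimulated genes, many of them antiviral.

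The promoters of 5 interferon-stimulated genes are shown as examples. These genes rose in all 3 PE libraries, as described further on, and each held the motif marked in capitals. Other genes that rose, such as Irf7 and Ifi44, did not hold it and are not shown. Each line is the 250 bases before the start of the gene in the RefSeq promoter table (GRCm38.p6), printed 5′ to 3′ along the gene. Each was found exactly once on its chromosome in GRCm39, and the positions given here are those: chr4:156285276-156285525 on the minus strand, chr19:34618039-34618288 and chr19:34560679-34560928 on the plus strand, and chr8:71990117-71990366 and chr12:26506452-26506701 on the minus strand. Capitals mark pairs of GAAA with any 2 bases between them, on either strand, the core of the interferon-stimulated response element; pairs that share a GAAA run together.
Isg15: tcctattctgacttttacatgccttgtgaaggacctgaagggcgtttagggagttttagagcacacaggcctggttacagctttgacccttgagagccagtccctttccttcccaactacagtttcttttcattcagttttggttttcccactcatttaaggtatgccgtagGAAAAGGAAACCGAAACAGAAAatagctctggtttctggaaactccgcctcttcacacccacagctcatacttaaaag
Ifit1: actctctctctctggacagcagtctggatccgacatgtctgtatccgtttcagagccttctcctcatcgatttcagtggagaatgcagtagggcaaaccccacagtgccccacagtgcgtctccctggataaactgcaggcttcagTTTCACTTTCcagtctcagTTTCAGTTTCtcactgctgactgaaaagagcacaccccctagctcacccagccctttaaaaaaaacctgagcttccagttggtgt
Ifit3: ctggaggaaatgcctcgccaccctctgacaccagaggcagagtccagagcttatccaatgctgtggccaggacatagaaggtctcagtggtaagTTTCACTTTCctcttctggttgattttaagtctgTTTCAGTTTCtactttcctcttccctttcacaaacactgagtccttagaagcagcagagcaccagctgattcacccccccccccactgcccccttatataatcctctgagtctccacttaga
Bst2: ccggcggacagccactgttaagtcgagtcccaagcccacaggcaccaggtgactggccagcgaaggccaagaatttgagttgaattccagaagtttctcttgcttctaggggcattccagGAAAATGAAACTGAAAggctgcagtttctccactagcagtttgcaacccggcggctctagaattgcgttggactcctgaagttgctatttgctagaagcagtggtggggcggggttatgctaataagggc
Rsad2: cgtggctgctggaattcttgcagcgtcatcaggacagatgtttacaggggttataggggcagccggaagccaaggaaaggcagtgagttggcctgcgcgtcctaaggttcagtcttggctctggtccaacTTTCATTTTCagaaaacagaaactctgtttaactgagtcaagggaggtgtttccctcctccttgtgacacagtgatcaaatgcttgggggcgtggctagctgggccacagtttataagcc

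Isg15 held 3 overlapping matches, Ifit1, Ifit3 and Bst2 held 2 each, and Rsad2 held 1. The search covered the 250 bases before the start, and not the 50 bases after it. Over the whole table the motif was present in 978 of 32851 such windows of 250 bases, or 2.98%. At least 1 window held it in 936 of 27025 genes, or 3.46%. Of the 20 genes in the interferon list, 17 were in the promoter table and 9 of those held a match. Among the 11 listed genes that were called higher and were in the table, 7 held a match (these 5, Oas1a and Gbp3), while Irf7, Ifi44, Psmb8 and Psmb10 did not. A match is a description of letters, not a measured binding site.

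Values are log2 CPM, which are read counts scaled to the size of each library, and differences are means of the PE libraries minus means of the uninjured libraries on that scale, so that 1 is a doubling, with the standard error (SE) of limma. A gene was called when its Benjamini-Hochberg adjusted p was under 0.05 in limma fitted to all 24 libraries. Of the 14159 genes, 1377 (9.73%) were called, 842 higher in PE (5.95%) and 535 lower (3.78%). The adjusted p of every called gene lay at or above 0.0448, close under the threshold. Before adjustment 5116 genes (36.1%) were under 0.05. The 3 PE values lay above all 3 uninjured values for 2672 genes (18.9%) and below them for 2827 (20%). Genes called higher had a median difference of 1.46, those called lower a median of -0.89, and the median over all genes was 0.07.

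PE replicate 2 stood apart from the other PE libraries before any test was made. Across genes, which are not independent replicates, its log2 CPM correlated at 0.812 and 0.827 with PE replicates 1 and 3. It held 2586 genes at least 2 log2 units from the uninjured mean, against 507 in PE replicate 1 and 377 in PE replicate 3, and 218 genes in it exceeded every other library of the comparison by at least 4 log2 units, against 1 in PE replicate 3 and 0 in PE replicate 1. Of 42 genes that separated the other MRL libraries from all B6 libraries by at least 3 log2 units, PE replicate 2 was on the MRL side for 41. Each of the 5 other libraries, left out in the same way, was on the MRL side for all of its 32 to 37 such genes. A partial mixture could leave a library on the MRL side, so these counts cannot show whether there was one. PE replicate 1 carried another first sequencing index than the 5 other libraries, by the study's library list.

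All 1377 called genes kept their direction without PE replicate 2, with a median ratio of 0.722 between the difference without it and the full difference, and PE replicate 2 was the library farthest from the uninjured mean for 1213 of them. The calls themselves rested on few libraries. Without PE replicate 2, limma called 1 gene, Gulp1, an engulfment adaptor named after its values were seen (difference 1.92, SE 0.29, adjusted p = 0.0482), with 2643 genes at an unadjusted p under 0.05. Without uninjured replicate 1 or uninjured replicate 3 it called 0, with 4115 and 3209 at an unadjusted p under 0.05. Without PE replicate 1 it called 2874, without PE replicate 3 it called 3427 and without uninjured replicate 2 it called 1089. In every gene list described here, 0 members were called without PE replicate 2, without uninjured replicate 1 or without uninjured replicate 3. Many lists are therefore given with their median over all 3 PE libraries and their median without PE replicate 2. Among lists described without both, these 2 medians were 1.34 and 0.26 for interleukin-1 genes and 0.74 and 0.22 for collagens. For metalloproteinases and inhibitors they were 1.71 and 0.57, and for proliferation genes 0.95 and 0.17. For MHC class II they were 1.78 and 1.21, for alternative activation genes 1.31 and 1.01, and for resident macrophage genes 1.11 and 1.22.

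**Figure D1:**
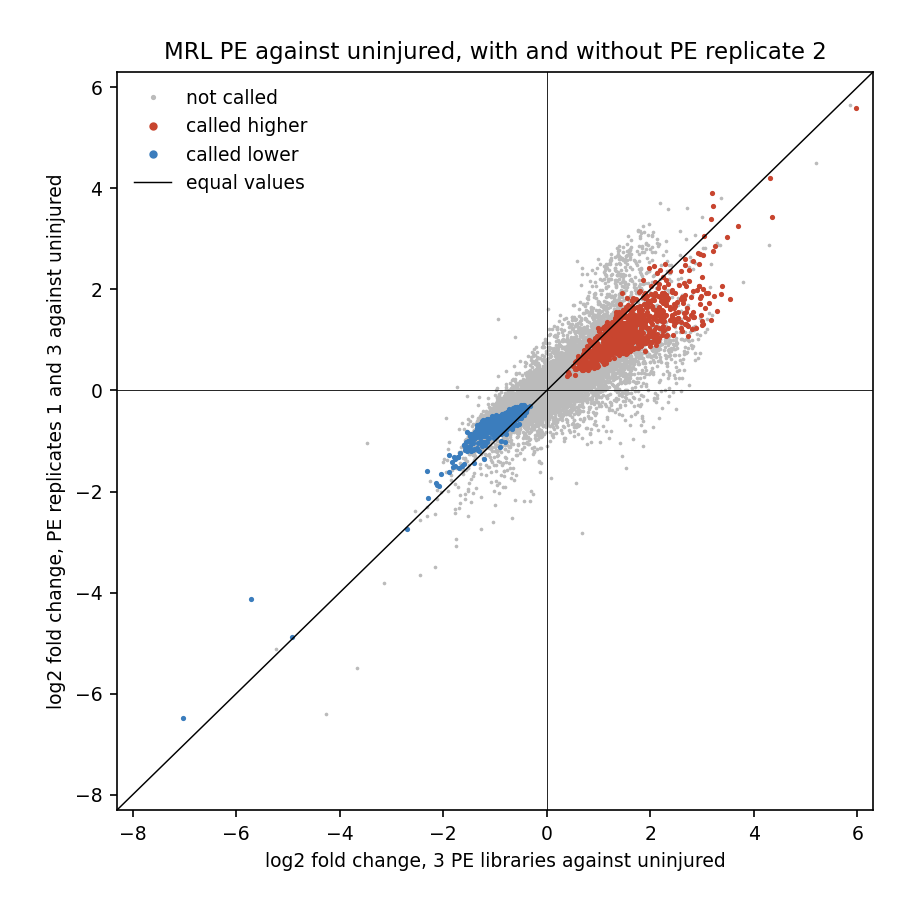
Log2 difference from uninjured MRL muscle with all 3 PE libraries (x axis) and with PE replicates 1 and 3 only (y axis), 1 point per gene, red for genes called higher, blue for genes called lower and grey for the rest. The 1377 called genes lie on the same side of 0 on both axes, most of them nearer to 0 without PE replicate 2 (median ratio 0.722), and the 3 blue points under -4 on the x axis are predicted genes.

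**Figure D2:**
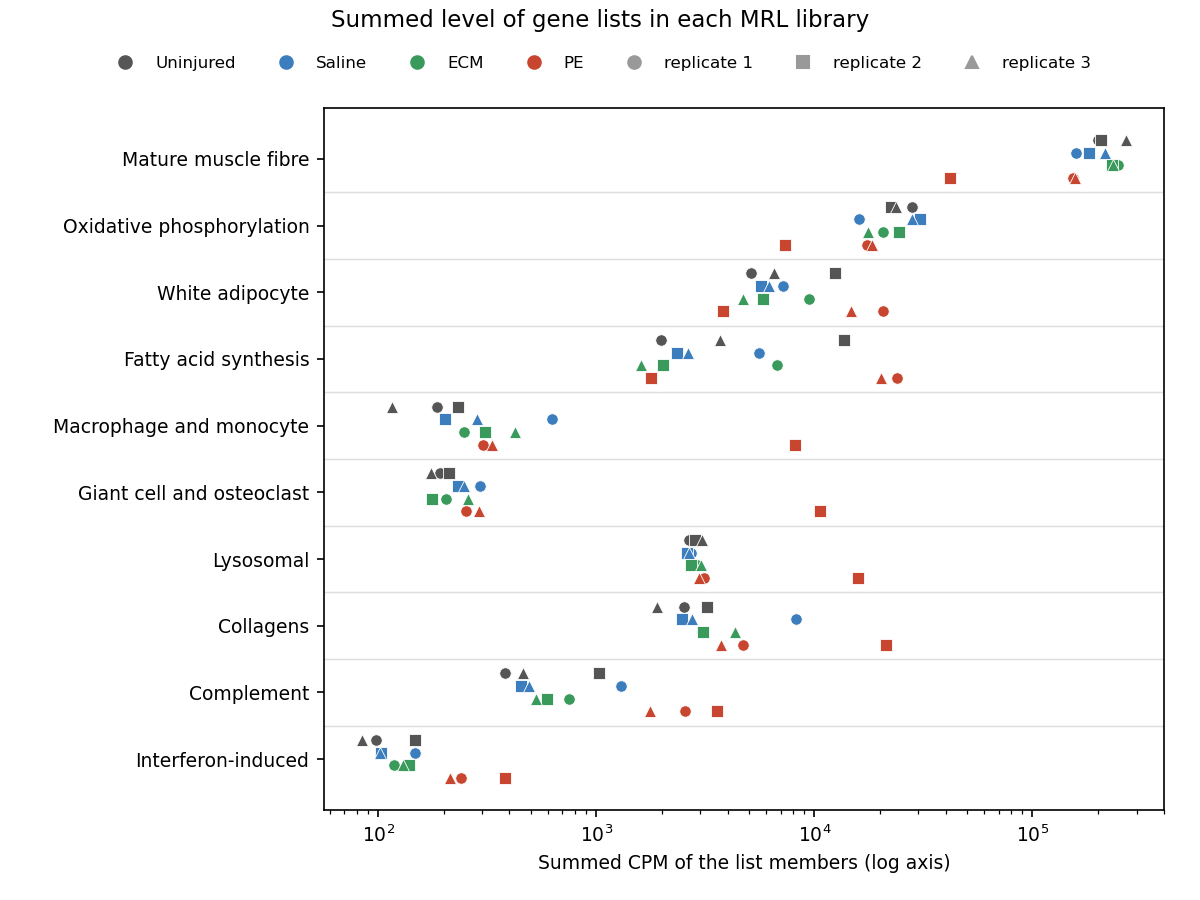
Summed CPM of the members of 10 gene lists in each MRL library, on a log axis, with colours for uninjured, saline, ECM and PE muscle and circles, squares and triangles for replicates 1, 2 and 3. PE replicate 2, the red square, lies apart for macrophage markers (8148.5 against 302 and 333 in the other PE libraries) and giant cell genes (10666.0 against 252 and 290.01), while the 3 red symbols lie above all uninjured and saline libraries for complement and interferon-induced genes. The complement sum includes the integrins Itgam and Itgax, which were high in PE replicate 2 alone. It also includes C3, which was not called, and Cfd, which is in the adipocyte list too.

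Interferon-stimulated genes were higher in each of the 3 PE libraries. Of the 20 listed, 13 rose and none fell, beside 5.95% of all genes called higher, and 17 had all PE values above all uninjured values, beside 18.9% of all genes. The median difference was 1.51, and 1.26 without PE replicate 2. The summed CPM of the list was 98.1, 147 and 84.5 in the uninjured libraries and 239, 383 and 214 in the PE libraries, so the groups did not overlap and PE replicates 1 and 3 were close to each other.

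Rsad2 encodes viperin, an antiviral enzyme. Its log2 CPM was 0.37, 0.34 and -0.62 in uninjured replicates 1, 2 and 3, and 2.16, 3.95 and 2.02 in PE replicates 1, 2 and 3. All PE libraries lay above all uninjured libraries, PE replicate 2 highest, and the difference was 2.68 (SE 0.50, adjusted p = 0.0448 in limma), or 2.06 without PE replicate 2. Ifit1, which binds foreign RNA caps, was at a log2 CPM of -0.40, 0.44 and -0.32 in uninjured muscle and 1.65, 2.41 and 1.49 with PE, a difference of 1.94 (SE 0.45). Ifit3, a partner of Ifit1, was at -0.64, 1.26 and 0.24 log2 CPM against 2.32, 2.79 and 2.64, a difference of 2.29 (SE 0.54), and here the 3 PE libraries lay close together. Its copy Ifit3b, at 97.2% identity over 1978 aligned bases, had no row in the matrix, and whether reads of the copy were counted for Ifit3 was not tested. Isg15, a ubiquitin-like protein that is attached to other proteins, was at -0.93, 0.27 and -0.40 log2 CPM against 0.45, 1.75 and 1.56, a difference of 1.61 (SE 0.44) with a narrow gap between uninjured replicate 2 and PE replicate 1.

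Bst2, or tetherin, which holds budding virus at the cell surface, was at 2.57, 3.05 and 2.13 log2 CPM in uninjured muscle and 4.05, 5.45 and 3.95 with PE, a difference of 1.9 (SE 0.38). Oas1a, a sensor of double-stranded RNA with a near-identical copy in the matrix (Oas1g), rose by a log2 difference of 2.79 (SE 0.65). Irf7, the transcription factor that amplifies interferon production, was at 1.74, 2.33 and 0.63 log2 CPM against 3.68, 4.09 and 3.02 and differed by 2.03 (SE 0.52). The groups of all 3 genes did not overlap. The immunoproteasome subunits Psmb8 and Psmb10 rose by log2 differences of 1.58 (SE 0.47) and 1.13 (SE 0.34). Among members that were not called, Irf8, which also marks myeloid cells, was at 3.53, 6.08 and 3.19 log2 CPM in the PE libraries against 2.82, 2.93 and 2.77, and Cxcl10, a chemokine for T cells, was at or under -0.25 in all 6 libraries.

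**Figure D3:**
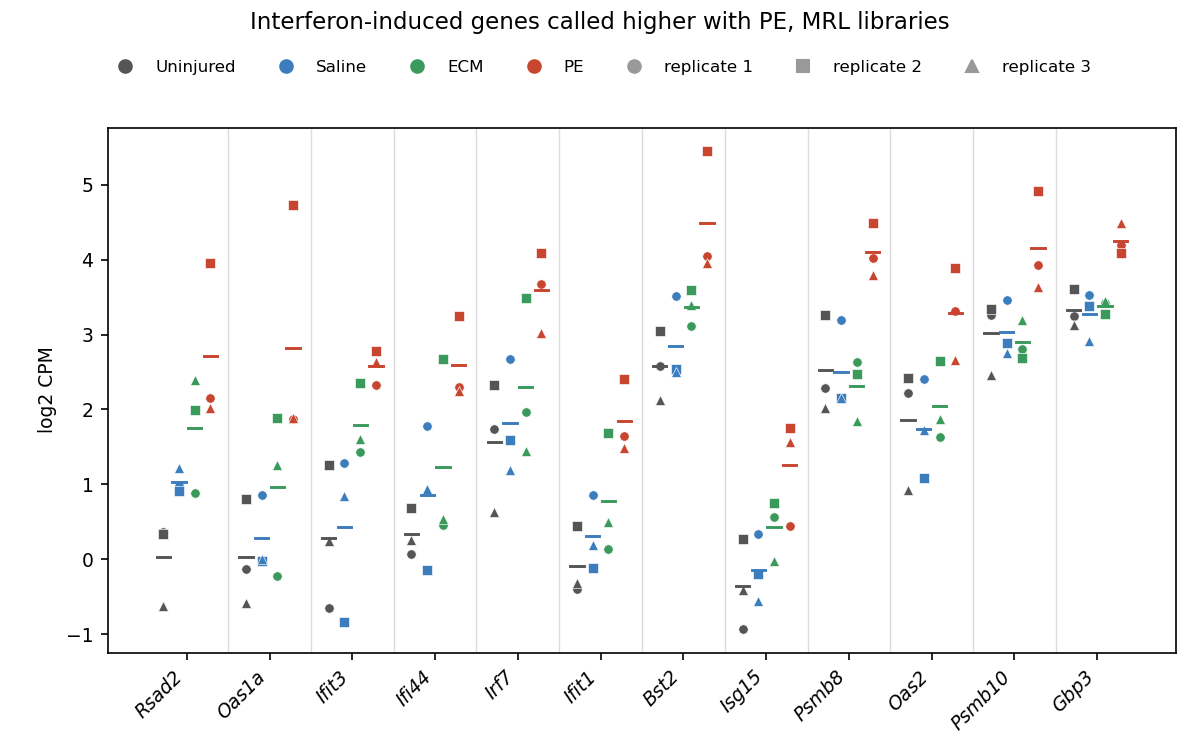
Log2 CPM of 12 interferon-induced genes that were called higher, in the uninjured, saline, ECM and PE libraries of MRL muscle, with circles, squares and triangles for replicates 1, 2 and 3 and a line at each group mean. For Rsad2 the uninjured libraries lie between -0.62 and 0.37 and the PE libraries between 2.02 and 3.95, with ECM libraries reaching 2.4.

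Complement genes were the second group higher in every PE library. Of 18 listed, 10 rose and none fell, beside 5.95% of all genes called higher, 13 had all PE values above all uninjured values, beside 18.9% of all genes, and the median difference was 1.69, or 1.19 without PE replicate 2. Summed over the list, CPM was 380, 1025 and 464 in uninjured muscle and 2565, 3592.5 and 1766 with PE. The list holds the integrins Itgam and Itgax, which exceeded every other library of the comparison by 5.34 and 7.08 log2 units in PE replicate 2. The sum of that library includes these high values. All sums also include C3, which was not called, and Cfd, which is in the adipocyte list too. Median deviations of the list from the uninjured mean were 1.37, 2.25 and 1.01 in PE replicates 1, 2 and 3. C1qa, 1 of the chains of the first component of the classical pathway, was at 3.89, 4.70 and 3.33 log2 CPM in uninjured muscle and 5.35, 6.96 and 5.23 with PE, a difference of 1.87 (SE 0.53) with no overlap. C1qb and C1qc, the partner chains, differed by 1.93 (SE 0.52) and 1.87 (SE 0.50) on the log2 scale.

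The proteases that C1q activates rose too: C1s1 by a log2 difference of 1.53 (SE 0.38) and C1ra by 1.57 (SE 0.39). Each has a similar copy, C1s2 for C1s1 (96.0% identity over 2644 aligned bases, not in the matrix) and C1rb for C1ra (97.9% over 2432 bases, with a row of its own), and the split of reads between them was not tested. Cfb, factor B of the alternative pathway, was at 3.80, 4.84 and 3.54 log2 CPM in uninjured muscle and 6.20, 5.59 and 5.54 with PE, a difference of 1.71 (SE 0.51), and PE replicate 1 was the highest library. Reads of Cfb may be shared with the overlapping gene model Gm20547. The stabiliser properdin (Cfp) and the receptor for C5a (C5ar1) differed by 1.35 (SE 0.35) and 2.14 (SE 0.62) on the log2 scale. C3, the central component, was at 6.61, 8.33 and 7.04 log2 CPM against 10.13, 8.18 and 9.60 and missed the threshold, with an adjusted p of 0.0520 and PE replicate 2 under uninjured replicate 2.

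Macrophage and monocyte markers were higher in PE muscle, but by very different amounts in the 3 libraries. Of 18 listed markers 9 rose and none fell, beside 5.95% of all genes called higher. All PE values lay above all uninjured values for 14, beside 18.9% of all genes. Of the 18 markers, 17 were highest in PE replicate 2, beside 5530 of all 14159 genes. C1qa, C1qb and C1qc are in this list too, so 3 of these 9 were already counted among the complement genes. The summed CPM of the list was 187, 231 and 115 in uninjured muscle, 302 and 333 in PE replicates 1 and 3, and 8148.5 in PE replicate 2. In B6 muscle with PE the same sum was 4979.5, 9497 and 2843, so PE replicate 2 was the MRL library within the range of B6 with PE. The median difference was 2.31 with all libraries and 1.05 without PE replicate 2.

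In each of the 9 markers that rose, PE replicates 1 and 3 also lay above all uninjured libraries. Csf1r, the receptor for the macrophage growth factor CSF1, was at 4.0, 4.56 and 3.35 log2 CPM in uninjured muscle and 5.23, 7.78 and 5.09 with PE, a difference of 2.07 (SE 0.61), or 1.19 without PE replicate 2. Emr1, which encodes the surface antigen F4/80, was at 1.91, 2.45 and 0.96 log2 CPM against 3.26, 6.54 and 2.99, a difference of 2.49 (SE 0.74). Ms4a7, Fcgr1 (the high-affinity IgG receptor), Cd14 (a coreceptor for bacterial lipopolysaccharide) and Mertk (a receptor for dead cells) rose by log2 differences of 2.90, 2.31, 2.30 and 1.94. Other markers were high in 1 library. Cd68, a lysosomal membrane protein, was at 2.37, 2.90 and 2.04 log2 CPM in uninjured muscle and 3.07, 8.84 and 3.35 with PE, and was not called (difference 2.65, SE 0.95, adjusted p = 0.0671). Lyz2, lysozyme, was at 6.01, 6.19 and 5.29 log2 CPM against 6.20, 11.64 and 6.53, and Itgam, an integrin of myeloid cells, at 2.83, 3.33 and 1.96 against 3.14, 8.67 and 3.25, neither called.

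Genes of cell fusion and of giant cells followed PE replicate 2. Of 18 listed genes in the matrix, 3 rose, beside 5.95% of all genes called higher. Of the 18, 13 were highest in PE replicate 2, beside 5530 of all 14159 genes. Summed over these genes, CPM was 193, 211 and 175 in uninjured muscle and 252, 10666.0 and 290.01 with PE. The median difference was 1.76 with all libraries (1.65 with Dcstamp set at its lower bound against 3 counts) and 0.29 without PE replicate 2. Dcstamp, which macrophages need to fuse, was at a count of 0 in all uninjured libraries and in PE replicate 1, close to 0 in PE replicate 3 (log2 CPM -2.35) and at 3.82 in PE replicate 2. Ctsk, the collagen-cutting cathepsin of osteoclasts, was at 4.03, 4.20 and 3.66 log2 CPM against 3.89, 10.88 and 4.53.

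Mmp12, macrophage elastase, showed a wide range, at 5.42, 4.83 and 5.16 log2 CPM in uninjured muscle and -0.90, 12.81 and 5.53 in PE replicates 1, 2 and 3. Gpnmb, a glycoprotein of lipid-laden macrophages, was at 5.02, 4.60 and 5.08 log2 CPM against 1.94, 12.63 and 5.69, and Itgax, the CD11c integrin, at 3.18, 2.76 and 3.07 against -0.66, 10.68 and 3.60. For all 3 genes PE replicate 1 was the lowest of the 6 libraries and PE replicate 2 the highest, and the difference turned negative without PE replicate 2 (-2.82, -1.09 and -1.53). The uninjured and saline MRL libraries and PE replicate 3 shared their first sequencing index with PE replicate 2. PE replicate 1 and the MRL ECM libraries did not. Libraries that share an index can receive each other's reads, so the uninjured, saline and PE replicate 3 values of genes very high in PE replicate 2 may hold reads of that library. The values of these 3 genes, of Trem2 and of the giant cell sum are among them. How many such reads there were was not tested. The listed genes that rose were Mmp9, a gelatinase at 0.84, 1.93 and 1.35 log2 CPM against 3.51, 5.95 and 3.15, Acp5, tartrate-resistant acid phosphatase, at 1.99, 5.08 and 3.36 against 6.42, 6.78 and 5.97, and Cd47, a ligand that restrains phagocytosis, at 4.21, 4.56 and 4.30 against 5.14, 6.72 and 5.12. In each the PE libraries lay above all uninjured libraries.

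Of 15 genes of lipid-associated macrophages, 5 rose (Apoe, Fabp5, Plin2, Ctsb and Ctsl), beside 5.95% of all genes called higher. Of the 15, 14 were highest in PE replicate 2, beside 5530 of all 14159 genes. The median difference was 1.61, or 0.73 without PE replicate 2. Apoe, an apolipoprotein that carries cholesterol, was at 7.20, 8.32 and 7.44 log2 CPM in uninjured muscle and 9.87, 10.77 and 9.22 with PE, a difference of 2.30 (SE 0.58) with no overlap. Fabp5, a fatty acid binding protein, differed by 2.24 (SE 0.55). Trem2, a lipid-sensing receptor, was at 1.99, 1.66 and 1.86 log2 CPM against 0.99, 9.25 and 2.60, and Lgals3, galectin-3, at 3.31, 3.45 and 3.43 against 3.62, 10.82 and 4.64, neither called. Of 22 lysosomal genes 5 rose, beside the same 5.95% of all genes, with a median difference of 0.92 and 0.19 without PE replicate 2. Among them Npc2, which moves cholesterol out of the lysosome, was at 5.38, 7.05 and 5.80 log2 CPM against 7.88, 8.99 and 7.50, a difference of 2.05 (SE 0.49), and Glb1, the lysosomal galactosidase, differed by 1.68 (SE 0.48).

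Other innate immune groups showed smaller sets of called genes, beside 5.95% of all genes called higher. Of 18 pattern recognition receptors 5 rose, with a median difference of 1.82, or 1.02 without PE replicate 2. Tlr4, the lipopolysaccharide receptor, was at 2.29, 2.58 and 1.94 log2 CPM in uninjured muscle and 3.33, 4.27 and 3.49 with PE, a difference of 1.43 (SE 0.41), and Tlr7, an endosomal RNA sensor, differed by 2.66 (SE 0.76). Tlr1 had the second largest difference of the genes named by size, 4.36 (SE 1.15). Its uninjured values were -1.58, -3.20 and -3.65 log2 CPM, the last a count of 0, and its PE values 0.41, 3.38 and 0.84. Uninjured replicates 2 and 3 lay under the level of 3 counts (log2 CPM -2.33). Over the alternative settings the difference ranged from 1.92 to 4.97. Of 14 genes of the interleukin-1 family and inflammasome 4 rose: the inflammatory caspases Casp1 and Casp4 by log2 differences of 2.25 (SE 0.59) and 2.25 (SE 0.50), the receptor Il1r1 by 1.05 (SE 0.30), and Il1rl1, the receptor for IL-33, by 1.81 (SE 0.46). Il1b itself was at -1.64, 3.08 and -2.61 log2 CPM in the PE libraries against -1.46, -1.69 and -2.09, high in PE replicate 2 alone.

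Of 24 chemokine ligands 3 rose, Ccl6, Ccl7 and Ccl9, all of which attract myeloid cells, with log2 differences of 2.53 (SE 0.77), 2.48 (SE 0.76) and 2.65 (SE 0.77). Of 12 chemokine receptors limma called 0, with 6 at an unadjusted p under 0.05. Of 9 genes of MHC class II, which present antigen to helper T cells, 2 rose. Cd74, the invariant chain, was at 4.76, 5.62 and 4.61 log2 CPM in uninjured muscle and 6.28, 8.14 and 6.27 with PE, a difference of 1.9 (SE 0.51), and H2-Ab1 differed by 1.85 (SE 0.54). Of 12 Fc and paired receptors 1 rose (Fcgr1). In the list of alternatively activated macrophages 1 of 10 rose, the lectin Clec10a, from 2.47, 3.38 and 2.33 log2 CPM to 4.66, 5.18 and 4.33, while Arg1 and Cd163 were not called. Both shares, 8.33% and 10%, rest on 1 gene beside 5.95% of all genes. In the list of resident macrophages 2 of 10 rose, Gas6, a bridging ligand for dead cells, and Pf4, a chemokine of platelets and macrophages, by 0.72 (SE 0.18) and 1.88 (SE 0.55) on the log2 scale.

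Of the lymphocyte markers 9 of 16 for T cells, 5 of 11 for B and plasma cells and 4 of 10 for NK and cytotoxic cells were in the matrix. Their counts stand beside 5.95% of all genes called higher and 3.78% called lower. Of the NK and cytotoxic cell markers 3 rose: Klrk1, an activating receptor, from -3.11, -1.76 and -2.89 log2 CPM to -0.42, 0.71 and -0.79, a difference of 2.42 (SE 0.54), Nkg7, of cytotoxic granules, by 1.88 (SE 0.54), and the protease Gzma by 1.99 (SE 0.61). The summed CPM of the 4 markers was 0.261, 0.783 and 0.334 in uninjured muscle and 1.92, 3.62 and 2.14 with PE, and Klrk1, Nkg7 and Gzma were under the level of 3 counts (log2 CPM -2.33) in some uninjured libraries. Of 9 T cell markers 1 rose, the kinase Lck, with a log2 difference of 2.59 (SE 0.74). Ighm, the heavy chain of IgM, was the only B or plasma cell marker called of the 5 in the matrix, and it fell. Its log2 CPM went from 5.96, 6.90 and 6.30 to 4.64, 5.04 and 5.26, a difference of -1.41 (SE 0.43) with no overlap. Of these 5 markers 3 had a positive difference, with a list median of 1.09, or 0.40 without PE replicate 2. Of 12 neutrophil markers and 8 mast cell markers limma called 0 each, with 5 and 4 at an unadjusted p under 0.05. The summed CPM of the mast cell markers was 25.4, 24.9 and 11 in uninjured muscle and 52.8, 45.9 and 46.3 with PE, similar in the 3 PE libraries.

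Extracellular matrix genes were higher mainly in PE replicate 2, with a subset higher in all 3 libraries. Of 26 matrix genes 6 rose and none fell, beside 5.95% of all genes called higher. The median difference was 1.30, or 0.35 without PE replicate 2. Sparc, a collagen-binding protein, was at 5.34, 5.15 and 8.08 log2 CPM in uninjured muscle and 9.50, 10.77 and 9.39 with PE, a difference of 3.70 (SE 0.88), with uninjured replicate 3 well above the other uninjured libraries. Serpinh1, the chaperone of collagen folding, was at 6.15, 7.21 and 6.11 log2 CPM against 7.93, 8.33 and 7.72, a difference of 1.5 (SE 0.35). Postn, periostin, was at 5.36, 5.67 and 4.98 against 7.72, 9.45 and 6.22 log2 CPM, a difference of 2.46 (SE 0.75), with PE replicate 3 lowest of the PE libraries. The cross-linking enzymes Lox and Loxl1 rose by log2 differences of 1.9 (SE 0.58) and 1.24 (SE 0.34), and Thbs2, a matricellular thrombospondin, by 1.89 (SE 0.57).

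Of 42 collagen genes 3 rose, Col5a2, Col5a3 and Col18a1, with log2 differences of 1.77 (SE 0.54), 1.35 (SE 0.36) and 1.53 (SE 0.45). That share, 7.14%, was near the 5.95% of all genes called higher. The list's summed CPM was 2526, 3204 and 1899 in uninjured muscle and 4686, 21199 and 3717.5 with PE. Col1a1, the main fibrillar collagen chain, was at 8.28, 8.38 and 7.62 log2 CPM in uninjured muscle and 9.09, 12.10 and 8.45 with PE, and was not called (difference 1.79, SE 0.73, adjusted p = 0.0941). Of 21 metalloproteinases and their inhibitors 4 rose, beside the same 5.95% of all genes. Mmp3, stromelysin, was at 0.44, 1.54 and 0.57 log2 CPM against 3.35, 6.89 and 2.47, a difference of 3.38 (SE 0.93), Adam12, a fibroblast and muscle metalloprotease, at 0.97, 3.09 and 1.48 against 5.06, 5.54 and 3.98, a difference of 3.01 (SE 0.77), and Adamts2, which trims procollagen, at 4.95, 5.75 and 4.78 against 6.78, 7.31 and 6.52, a difference of 1.71 (SE 0.32). The fourth was Mmp9. In the list of TGF-beta pathway and myofibroblast genes 3 of 19 rose and 1 fell, beside 5.95% of all genes called higher and 3.78% called lower. The receptor Tgfbr2 and the PDGF receptors Pdgfra and Pdgfrb rose by log2 differences of 1.13 (SE 0.30), 1.13 (SE 0.32) and 0.65 (SE 0.20). Smad3, a signal transducer of TGF-beta, fell from 7.27, 7.16 and 7.32 log2 CPM to 6.77, 5.42 and 6.69, a difference of -0.96 (SE 0.29).

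Genes of mature muscle fibres were lower in PE muscle. All 26 listed fibre genes had a negative difference, 12 had all PE values under all uninjured values, beside 20% of all genes, and 2 fell by the test, beside 3.78% of all genes called lower. Their summed CPM was 199400, 205350 and 267920 in uninjured muscle and 153150, 41695 and 156530 with PE, so PE replicate 2 was far below the others. The median difference was -1.14, and -0.62 without PE replicate 2. Tcap, a protein of the sarcomere's Z-disc, was at 11.11, 10.36 and 11.05 log2 CPM in uninjured muscle and 9.91, 8.17 and 9.62 with PE, a difference of -1.61 (SE 0.49). Dmd, dystrophin, was at 6.59, 6.47 and 6.56 log2 CPM against 5.81, 4.52 and 6.01, a difference of -1.09 (SE 0.31), with the uninjured libraries within a narrow range. Acta1, skeletal actin, was at 14.57, 14.68 and 15.06 log2 CPM against 14.32, 12.37 and 14.20, and was not called.

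The calls for lower genes depended on how the libraries were scaled. The authors' TMM scaling left the libraries with unequal sums, 1145700, 1090800 and 1262300 CPM in uninjured muscle and 974290, 733110 and 956630 with PE. When each library was instead rescaled to the same sum, the median difference of all genes moved from 0.07 to 0.47, 2075 genes were called and 94% of them were higher, against 61.1% in the reported fit. The median of the fibre list was then -0.74 with 1 gene called lower, and the 17 subunits of oxidative phosphorylation called lower became 1. Relative to the median of all genes, the fibre list stood at -1.21 in both scalings. Rescaling shifts all genes of a library almost alike on the log2 scale, so this value could hardly change and does not test the scaling.

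Subunits of the mitochondrial respiratory chain and ATP synthase were lower in PE muscle as a broad group. Of 80 listed subunits 17 fell and none rose, beside 3.78% of all genes called lower, 69 had all PE values under all uninjured values, beside 20% of all genes, and the median difference was -0.84, or -0.46 without PE replicate 2. The summed CPM was 28000, 22420 and 23652 in uninjured muscle and 17501, 7370 and 18455 with PE. The called members came from several complexes. Ndufb2 and Ndufc1 of complex I fell by 1.14 (SE 0.31) and 1.04 (SE 0.28) on the log2 scale, and Sdhc of complex II by 1.10 (SE 0.32). Cox6a2 of complex IV, a form found in striated muscle, was at 8.72, 8.04 and 8.45 log2 CPM against 7.55, 6.00 and 7.49, a difference of -1.39 (SE 0.42), and Cox7a1, likewise of complex IV, fell by 1.29 (SE 0.40).

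Of 19 genes of calcium handling 2 fell, Trdn, triadin of the calcium release complex, from 9.59, 9.56 and 10.25 log2 CPM to 8.79, 7.37 and 9.01, a difference of -1.41 (SE 0.39), and Stac3, which couples excitation to contraction, by -1.26 (SE 0.37). Of 23 genes of glycolysis and glycogen 2 fell, the phosphorylase kinase subunit Phkg1 and the phosphatase subunit Ppp1r3a, by -1.28 (SE 0.37) and -1.46 (SE 0.42), and 16 had all PE values under all uninjured values, beside 20% of all genes. The shares called lower, 10.5% for calcium handling and 8.7% for glycolysis and glycogen, rested on 2 genes each and stood beside 3.78% of all genes. In 21 genes of fatty acid oxidation limma called 0, with 3 at an unadjusted p under 0.05, and the median of -0.43 became 0.09 without PE replicate 2. The list of atrophy and stress genes moved both ways. The ubiquitin ligases Trim63 and Fbxo32, which mark protein breakdown in muscle, fell: Trim63 from 8.14, 7.90 and 8.55 log2 CPM to 7.41, 5.77 and 7.41, a difference of -1.33 (SE 0.36), and Fbxo32 by -1.32 (SE 0.39). The metallothioneins Mt1 and Mt2, which bind metal ions, rose by log2 differences of 1.39 (SE 0.37) and 1.78 (SE 0.50).

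Adipocyte genes split the PE libraries. Their summed CPM was 5108, 12409 and 6517 in uninjured muscle, 20537 and 14674 in PE replicates 1 and 3, and 3797 in PE replicate 2. None of the 23 genes was called by limma, with 2 at an unadjusted p under 0.05, and none had groups that did not overlap. The median difference was 1.21 with all libraries and 2.45 without PE replicate 2, when 18 had an unadjusted p under 0.05. Adipoq, the adipocyte hormone adiponectin, was at 4.20, 8.05 and 6.26 log2 CPM in uninjured muscle and 9.32, 5.49 and 8.49 with PE. The uninjured libraries were also spread, with uninjured replicate 2 highest.

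The 12 lipogenesis genes showed the same split, at a summed CPM of 1974.5, 13620.0 and 3682 in uninjured muscle and 23936, 1780.5 and 20293 with PE. Scd1, the stearoyl-CoA desaturase, was at 9.19, 13.12 and 10.86 log2 CPM against 13.97, 9.77 and 13.82, and was not called. The single member that rose was Elovl5, an elongase of polyunsaturated fatty acids, at 4.39, 5.71 and 4.12 log2 CPM against 6.30, 6.01 and 6.25, a difference of 1.45 (SE 0.39) that was alike in the 3 PE libraries. That share, 8.33%, rests on 1 gene beside 5.95% of all genes called higher.

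Genes of cholesterol synthesis and transport were higher in all 3 PE libraries, by median deviations of 1.13, 1.35 and 0.65 from the uninjured mean. Of 17 listed, 5 rose and none fell, beside 5.95% of all genes called higher. All 17 differences were positive, beside 7685 of all 14159 genes, and the median was 0.86, or 0.89 without PE replicate 2. Cyp51, the lanosterol demethylase, was at 3.61, 4.29 and 3.28 log2 CPM in uninjured muscle and 5.11, 5.13 and 4.70 with PE, a difference of 1.25 (SE 0.30). Sqle, squalene epoxidase, was at 2.58, 3.54 and 2.5 log2 CPM against 4.42, 4.53 and 3.83, a difference of 1.39 (SE 0.38), and Dhcr7, the last enzyme of the pathway, differed by 1.00 (SE 0.24). Their PE values lay above all their uninjured values. The cholesterol exporters rose as well: Abca1 from 5.10, 5.80 and 5.32 log2 CPM to 6.82, 7.55 and 6.40, a difference of 1.52 (SE 0.42), and Abcg1 from 1.56, 2.40 and 1.63 to 4.17, 7.32 and 3.42, a difference of 3.10 (SE 0.69) that was largest in PE replicate 2.

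Genes of muscle regeneration were not called. Of 18 myogenic genes limma called 0, with 4 at an unadjusted p under 0.05, and PE replicate 1, PE replicate 2 and PE replicate 3 had median deviations of -0.71, 0.25 and 1.12 from the uninjured mean. Myog, the transcription factor of differentiating muscle cells, was at 3.47, 2.99 and 3.47 log2 CPM in uninjured muscle and 2.29, 2.90 and 4.69 with PE. Pax7, of the muscle stem cell, was at 1.75, 1.58 and 1.37 log2 CPM against 1.36, -0.01 and 0.65, and Myh3, embryonic myosin, at 4.41, 1.14 and 1.97 against 0.78, 3.99 and 4.90, with overlap between groups. Of 19 proliferation genes 2 rose, the mitotic kinase Cdk1 from -0.30, -1.0 and -1.58 log2 CPM to -0.12, 2.84 and 0.72, and cyclin B1 (Ccnb1) by a log2 difference of 2.30 (SE 0.69). Of 16 hypoxia genes 1 rose, the hexokinase Hk1, by 1.25 (SE 0.36). These shares, 10.5% and 6.25%, stood beside 5.95% of all genes called higher, and the second was close to it.

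Markers of other tissues that a quadriceps sample can carry also varied between libraries. Erythrocyte genes had a summed CPM of 2492, 400.2 and 438 in uninjured muscle and 4128, 672 and 1417 with PE. That of mammary epithelium and milk genes was 125, 41.1 and 25.1 against 102, 149 and 225, with Csn3, kappa-casein, at 5.94, -1.91 and -0.95 log2 CPM in uninjured muscle and -1.93, 5.51 and 6.33 with PE. Tendon and cartilage genes were at 209, 287 and 75.4 summed CPM against 26.3, 296 and 119. In these lists and in those of endothelial, smooth muscle, Schwann cell, keratinocyte and eosinophil markers limma called 0 genes, with 6 at an unadjusted p under 0.05 in all 8 lists together, and the part of these tissues in the other results was not tested.

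Among named genes of no list, the largest rise was in Itsn2, an endocytic scaffold protein at chr12:4642630-4763962 on the plus strand of GRCm39. It was at a count of 0 in uninjured replicates 1 and 3 and at -0.38 log2 CPM in uninjured replicate 2. With PE it was at 3.29, 4.19 and 2.77 log2 CPM, a fitted difference of 5.98 (SE 1.65). The size of that difference depends on how a count of 0 is put on the log scale. Over the alternative settings it ranged from 3.29 to 7.07. Kcng2, a potassium channel subunit, was at -1.74, -1.91 and -2.39 log2 CPM against 1.76, 0.71 and 0.97, a difference of 3.16 (SE 0.70), or 3.38 without PE replicate 2. Plac8, Cd37, Hvcn1, Hk3 and Prkcb, all found in leukocytes, rose by log2 differences from 3.13 to 3.28, with PE replicate 2 the highest library in each. Mup9, a major urinary protein whose reads may be shared with near-identical copies, rose from -2.28, 2.17 and -0.19 log2 CPM to 4.31, 4.39 and 3.91. Spon1, an extracellular matrix protein at chr7:113364999-113642610 on the plus strand, was chosen after its values were seen. It was at 2.93, 4.79 and 3.97 log2 CPM against 7.17, 6.94 and 6.73, a difference of 3.04 (SE 0.52), with the 3 PE libraries within a narrow range.

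Among the called falls with no overlap, Otub2, a deubiquitinating enzyme at chr12:103354916-103372609 on the plus strand, had the smallest error of the 15 largest. It was at 4.94, 4.75 and 4.72 log2 CPM in uninjured muscle and 2.95, 2.34 and 2.87 with PE, a difference of -2.08 (SE 0.34), or -1.89 without PE replicate 2. Mss51, a skeletal muscle gene that acts on mitochondria, was at 5.44, 6.13 and 6.25 log2 CPM against 1.77, 3.32 and 4.63, a difference of -2.70 (SE 0.78). Mettl11b, a methyltransferase, was at 4.70, 4.22 and 4.41 log2 CPM against 1.85, 1.85 and 2.76, a difference of -2.29 (SE 0.49). In Mss51 PE replicate 1 was the lowest library, and in Mettl11b PE replicates 1 and 2 were level. Ankrd23, a stretch-responsive ankyrin repeat protein of muscle, fell from 12.10, 11.42 and 12.49 log2 CPM to 10.76, 9.30 and 10.60, and the immediate early gene Nr4a1 from 7.81, 6.95 and 7.69 to 5.74, 4.89 and 6.52.

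The injuries with saline and with ECM share the uninjured libraries with the PE comparison, so their values are set side by side and no overlap is drawn. Saline against uninjured had 0 called genes in limma and 439 at an unadjusted p under 0.05 (3.1%). ECM against uninjured had 2 called, both higher (0.0141%), Mrgprg and Rnase2a, named here after their values were seen, and 538 at an unadjusted p under 0.05 (3.8%). The medians of the interferon list were 1.51 for PE, 0.20 for saline and 0.60 for ECM. Rsad2 was at 0.98, 0.91 and 1.21 log2 CPM with saline and 0.88, 1.99 and 2.4 with ECM, so that ECM overlapped PE and saline did not. For complement genes the medians were 1.69, 0.60 and 0.37, and for macrophage markers 2.31, 0.83 and 0.99. The saline libraries shared their first sequencing index with PE replicate 2 and the ECM libraries did not, and the effect on these medians was not tested. For fibre genes they were -1.14, -0.09 and 0.06, for respiratory chain subunits -0.84, -0.06 and -0.18, and for cholesterol genes 0.86, -0.03 and 0.02. For myogenic genes all medians were positive and that of PE was the lowest, at 0.55, against 1.43 for saline and 1.67 for ECM.

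**Figure D4:**
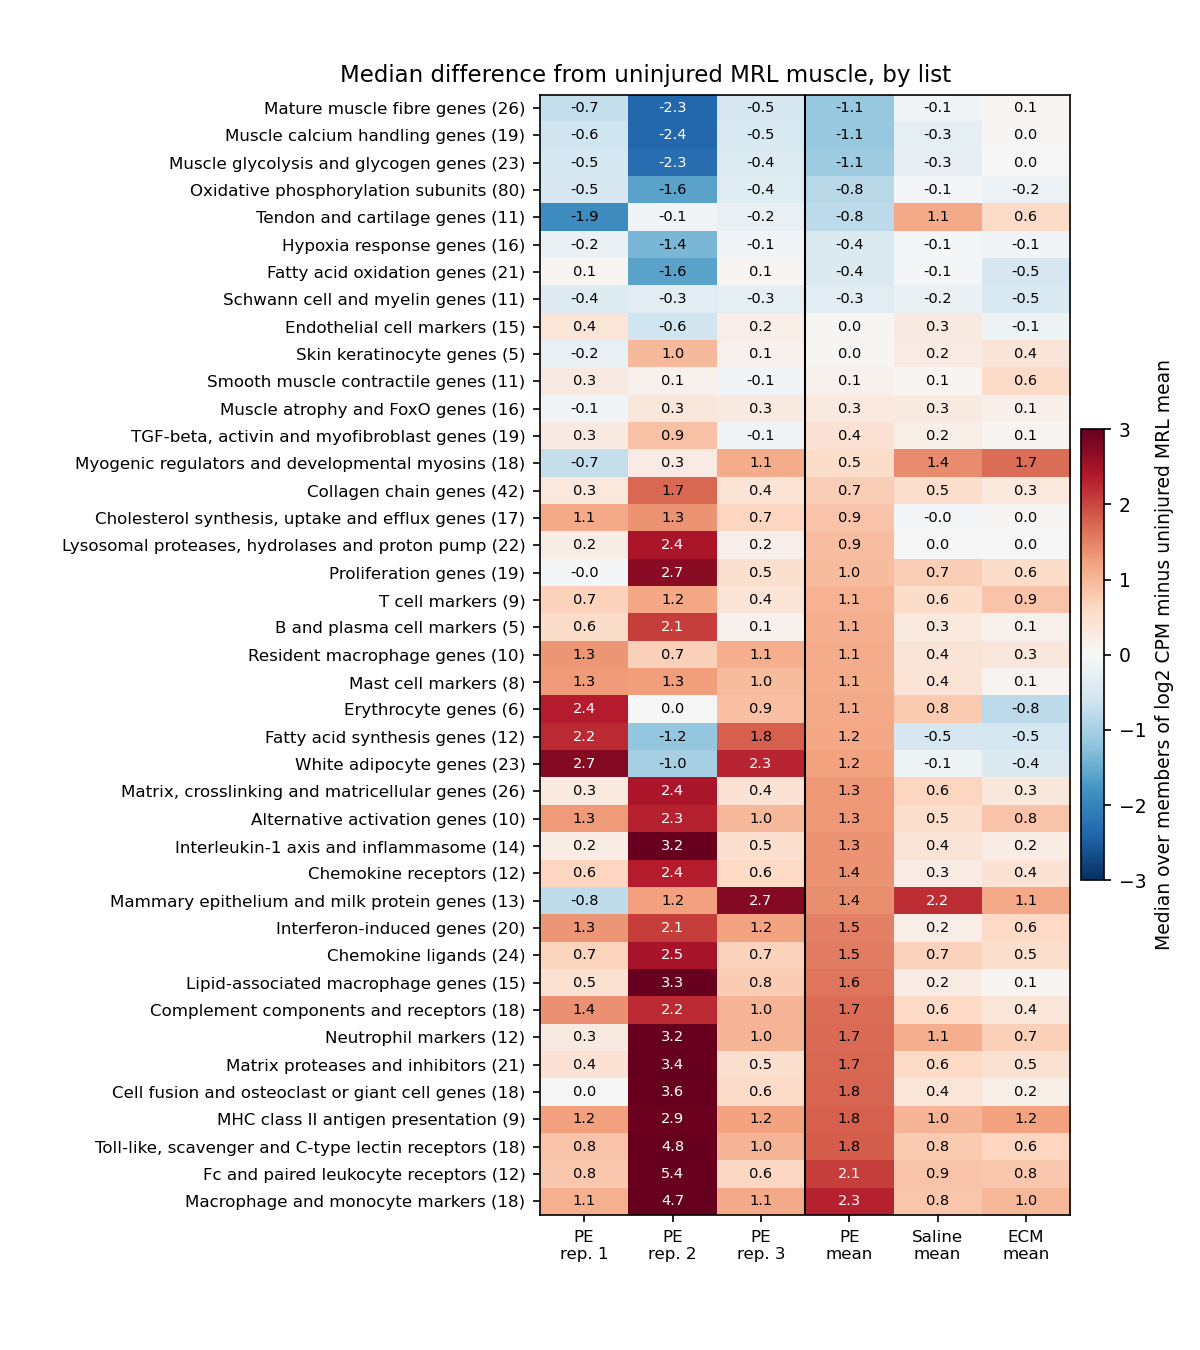
Median over the members of each gene list (number of members in brackets) of the log2 CPM difference from the uninjured MRL mean, for each PE library and for the PE, saline and ECM groups, with the value in each cell and red for higher, blue for lower. The interferon list lies at 1.51, 0.20 and 0.60 and the myogenic list at 0.55, 1.43 and 1.67 for PE, saline and ECM.

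When PE was compared with the saline injury directly, limma called 0 of 14159 genes, with 3298 at an unadjusted p under 0.05 (23.3%). Without saline replicate 1 it called 775, without PE replicate 3 it called 121, without saline replicate 2 it called 2 (Kcng2 and Rab6b, the second named after its values were seen), and without any other single library it called 0. The interferon list had a median difference of 1.47 from saline and the list of respiratory chain subunits a median of -0.77. Summed interferon list CPM was 148, 104 and 102 with saline and 239, 383 and 214 with PE. Spon1 was at 5.36, 2.97 and 3.7 log2 CPM with saline, under all 3 PE libraries, and differed from saline by 2.93 (adjusted p = 0.0850 in limma).

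The response to PE was also set beside that of B6 mice, which shares no library with it. B6 muscle with PE against uninjured B6 muscle had 3508 called genes (24.8%), 2086 higher and 1422 lower. The difference between the strains' responses was itself tested, and limma called 3 of 14159 genes (0.0212%), 1 with a more positive difference in MRL (0.00706%) and 2 with a more negative one (0.0141%), with 1652 at an unadjusted p under 0.05 (11.7%). Without MRL PE replicate 2 the same test called 1354 genes, without MRL uninjured replicate 1 it called 10, and without any other single library it called 1 or 2. Pydc4, a gene with a pyrin domain, fell in MRL muscle, from 1.13, 1.51 and 2.16 log2 CPM to 0.61, 0.03 and 0.39, a difference of -1.26 (SE 0.30), and rose by 1.78 (SE 0.30) in B6 muscle. The strains' responses differed by -3.04 (SE 0.42, adjusted p = 0.00930 in limma). Slc4a1, the anion exchanger of erythrocytes, was at a count of 0 in all 3 B6 PE libraries against a B6 uninjured mean of 1.16 log2 CPM, a fall of at least 3.49 against the level of 3 counts per library, while in MRL muscle it was at -0.25, -2.57 and -2.44 log2 CPM against 0.55, -0.24 and -0.70.

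Between strains the list medians were 1.51 in MRL and 1.74 in B6 for interferon-stimulated genes, and 1.69 and 1.21 for complement genes. For macrophage markers they were 2.31 in MRL and 3.94 in B6, and for cholesterol genes 0.86 and 0.52. Respiratory chain subunits had medians of -0.84 in MRL and -0.95 in B6. Lists with medians of opposite sign included adipocyte genes, with 1.21 in MRL and -2.59 in B6, mast cell markers, with 1.11 and -1.30, and erythrocyte genes, with 1.13 and -4.62. Single members of these lists other than Slc4a1 did not pass the test of the difference between strains.

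**Figure D5:**
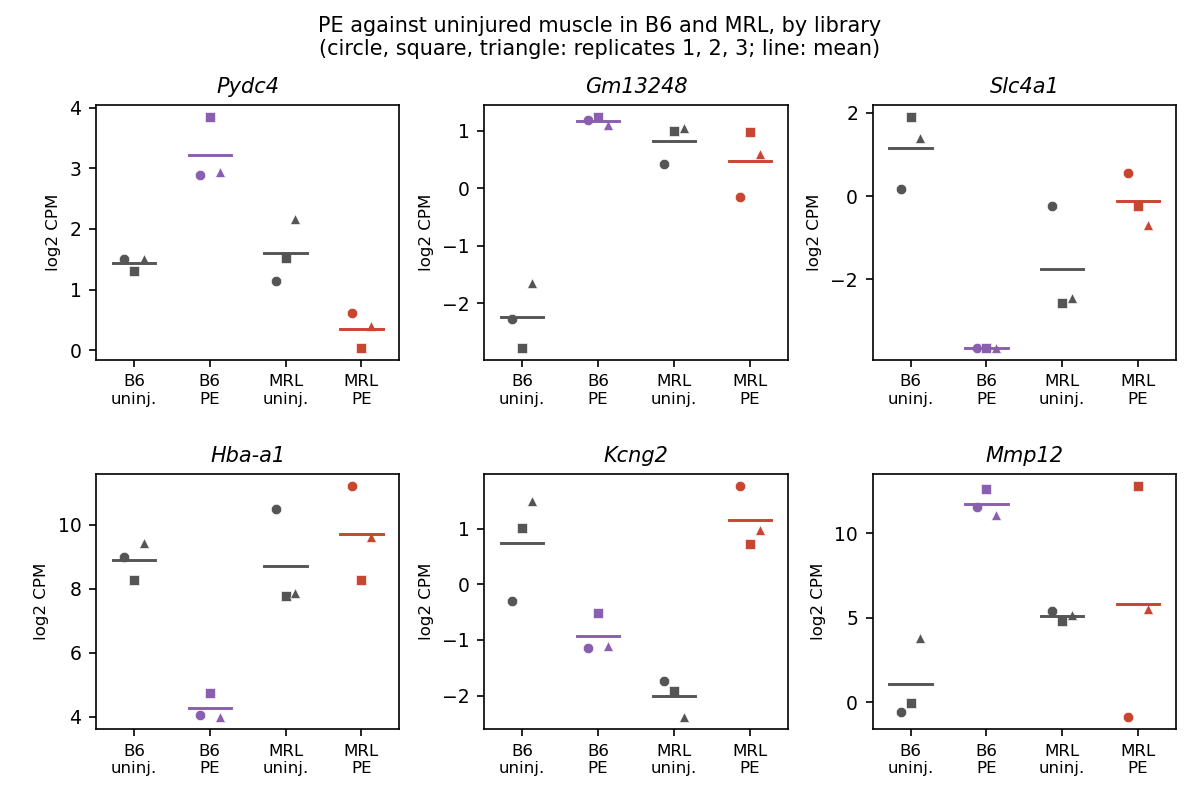
Log2 CPM of 6 genes in uninjured and PE muscle of B6 and MRL mice, with circles, squares and triangles for replicates 1, 2 and 3 and a line at each mean. Pydc4 with PE lies between 2.89 and 3.85 in B6 and between 0.03 and 0.61 in MRL, and Mmp12 in MRL PE replicate 2 (12.81) lies above the B6 PE libraries (11.12 to 12.60).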

How the data were processed

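Bulk RNA-seq was measured in 24 quadriceps libraries, 3 in each of 8 groups of 2 strains. The deposited values are log2 CPM: the authors selected polyadenylated RNA, quantified reads with kallisto on Ensembl GRCm39 transcripts, summed to genes with tximport (length-scaled TPM, EnsDb version 79 symbols), kept genes with CPM above 1 in at least 3 libraries, scaled by TMM and took logs with edgeR's prior count of 2. No counts were used, and depth per library is not given by the values. Their common lowest value, -3.65, corresponds to a mean effective library of 25149678 counts, and 3 counts to 0.119 CPM. Such limits cover counting error only.

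Samples were grouped by their labels, all matrix columns were assigned to samples, and 1 row that names no gene was dropped. limma 3.58.1 (R 4.3.3), with 1 coefficient per group, a variance trend and a 2-sided moderated test, was fitted to all 24 libraries, with Benjamini-Hochberg adjustment over 14159 genes. The trend took the place of the authors' voom weights. The procedure was tested on simulated data. Alternatives were the compared groups alone, a constant prior variance, library weights, a minimum mean log2 CPM of 1, log2(CPM + 1), equal totals, quantile normalization, a replicate block, leaving out each library and, chosen after seeing the data, a robust prior variance. An exact permutation test of 3 against 3 cannot go below p = 0.1 and was not used.

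The groups and the gene lists were chosen with earlier results of these data known. Genes were named by rule: the 15 largest called rises and falls whose groups did not overlap (predicted genes left out), list members with the smallest p or written first, genes called between strains, genes the study names, and list members high in 1 library alone. Some items are not reported here. Promoters came from RefSeq (GRCm38.p6) and were placed on GRCm39 by exact sequence match. Gene positions came from the GENCODE annotation of GRCm39. Near-identical copies were found among its transcripts with BLAST 2.17.0. Tables and plots used Python 3.11.15, pandas 2.3.3 and matplotlib 3.10.9.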

Additional observations from a re-analysis of the deposited data

Results flagged for a closer look

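The response to PE differed between MRL and B6 by its own test, the contrast of both responses in limma, for 3 genes. Pydc4 differed by -3.04 (SE 0.42, adjusted p = 0.00930), lower with PE in MRL (-1.26) and higher in B6 (1.78). Slc4a1 differed by 6.43 (SE 1.03, adjusted p = 0.0374), at 1.62 in MRL and -4.81 in B6, where all PE libraries were at a count of 0, so that the fitted value depends on the prior count. With every value under the level of 3 counts per library set to that level, the difference was at least 4.99. Gm13248, a predicted gene named after its values were seen, differed by -3.77 (SE 0.63, adjusted p = 0.0393), at -0.35 in MRL and 3.42 in B6. The cause of these differences was not tested.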

How the results depend on the processing

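The 1377 called genes (842 higher, 535 lower) became 0 with only the compared groups' libraries (2847 at an unadjusted p under 0.05), 0 with a constant prior variance (5041) and 0 with quantile normalization (4759), 9 with the replicate block (7 higher, 2 lower), 2518 with library weights (1426 and 1092) and 2075 with equal totals (1951 and 124). Leaving out 1 library gave 0 to 3427 calls, 0 to 1874 higher and 0 to 1553 lower. A minimum mean level (1646), log2(CPM + 1) (1131) and the robust prior variance (1292) stayed within 1.5 times. Of the 1377 genes, 1372 kept their direction with equal totals, 1266 of the 1266 tested did with the minimum mean level, and all 1377 did under each other setting. Of 137 named genes called, 137 lost the call with the compared groups alone, 135 with quantile normalization, 134 with a constant prior variance and 133 with the replicate block, against 30 with log2(CPM + 1), 13 with equal totals, 12 with library weights and 3 with the robust prior.

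The replicate numbers were not treated as pairs in the reported fit. Same-numbered uninjured and PE libraries correlated at -0.261, -0.051 and 0.137 in MRL in their deviations from group means, and at 0.087, 0.247 and 0.118 in B6. With 3 libraries per group these values cannot decide whether the numbers pair the samples. The 9 calls with the block included Rsad2, Spon1 and Otub2. The 3 calls between strains became 0 with the compared groups, 3881 with library weights, 1 with the minimum mean level, 7 with log2(CPM + 1), 5 with equal totals, 7 with quantile normalization and 1 with the block, and 1 to 1354 without 1 library. The 0 calls against saline became 3303 with library weights and 0 to 775 without 1 library. The library weights gave MRL PE replicate 2 a weight of 0.06 and B6 PE replicate 1 a weight of 56.3. The cause of the shifts was not tested.

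Differences turned sign for Itgax (-0.83 with library weights, -1.53 to 4.14 without 1 library), Mmp12 (-1.83, -2.82 to 4.04), Gpnmb (-0.46, -1.09 to 4.26), Il1b (-0.42, -0.38 to 2.47), Trem2 (-0.038 to 4.09 without 1 library), Myh3 (-0.12 to 1.94) and Myog (0.48 with library weights, 0.012 with log2(CPM + 1), 0.38 with equal totals, -0.72 to 0.49 without 1 library). None of these 7 genes was called.

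With 3 libraries per group, PE replicate 2 apart and adjusted p close under the threshold, a call here says less than the library values beside it. Genes under 3 counts per library cannot be told from 0.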
